A study of Mus musculus with 31 samples.

Results

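The Hox genes are the 39 protein-coding mouse genes whose symbol is Hoxa, Hoxb, Hoxc or Hoxd followed by a number, 39 of the 21887 protein-coding genes of the RefSeq annotation of GRCm38.p6 (mm10). They lie in 4 clusters: 11 Hoxa genes on chromosome 6, 10 Hoxb genes on chromosome 11, 9 Hoxc genes on chromosome 15 and 9 Hoxd genes on chromosome 2. Hox genes encode homeodomain transcription factors that assign position along the head-to-tail axis of the embryo, in an order that follows the order of the genes within each cluster. In the nervous system they act in the hindbrain and the spinal cord, where retinoic acid helps to switch them on, and they are known to be silent in most of the forebrain, to which the hippocampus belongs. Polycomb complexes keep silent Hox clusters closed, and trithorax-type methyltransferases of the MLL family place histone H3 lysine 4 trimethylation (H3K4me3), a mark of active promoters, on those that are used.

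H3K4me3 and H3K4me1, the monomethylated form found at enhancers and promoter flanks, were profiled by chromatin immunoprecipitation and sequencing in the hippocampus of C57BL6 mice aged 30 days, with Abcam antibodies. Wild type mice (KMT2D+/+) had 2 intact copies of Kmt2d, which encodes an H3K4 methyltransferase, and heterozygotes (KMT2D+/bGeo) had 1 copy interrupted by a bGeo insertion. Mice of both genotypes were dosed by oral gavage for 2 weeks from 2 weeks of age, either with TAK-418 at 1 mg/kg/day, an inhibitor of the H3K4 demethylase LSD1, or with its vehicle, methylcellulose, which all groups therefore received. Each of the 4 groups had 4 H3K4me3 libraries, each from a mouse of its own, and 15 H3K4me1 libraries were made from the same mice. The insertion is present in every cell of a heterozygote, the tissue was not sorted, and in such bulk tissue a mark in few cells and a weak mark in many cells cannot be told apart. Peak lists cannot check the genotype: Kmt2d itself had an H3K4me3 peak in the long list of each group.

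The libraries fell into long and short peak lists before any gene was considered. In every group 1 H3K4me3 library had a long list, of 13343 to 16750 peaks, and these 4 libraries (wild type vehicle 3, heterozygote vehicle 2, wild type TAK-418 3 and heterozygote TAK-418 3) are also the H3K4me3 libraries with a sequencing index of sets 1 and 2, as read from the labelled index sequences. The other 12 lists held 302 to 2281 peaks. The files give no read counts, so sequencing depth is unknown, and index set and list length cannot be told apart.

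Promoter windows ran from 250 bases before to 50 bases after a RefSeq start. The Hox windows held a median of 14.5 CG dinucleotides, against 13 over all promoters, yet few Hox windows lay under a peak. Windows were found for 22 of the 39 Hox genes, 24 windows in all. Of the genes that the rule for printing selected, Hoxd1 had the most libraries with a peak in its cluster, while Hoxb1 and Hoxc4 had no peak in any library. Hoxa4, Hoxb3 and Hoxc13, which the rule also selected, had no entry in the table. Hoxa4 and Hoxa9 were tied at 3 libraries, and the rule took the gene with the wider peak (1051 against 992 bp). Hoxa13, whose window has the most CG dinucleotides, and Hoxa5, with as many as Hoxd1 and no peak, were added after their values were seen. Sequences are RefSeq GRCm38.p6, 5′ to 3′ on the strand of the gene, with CG dinucleotides in capitals.
Hoxd1, chr2:74762730-74763029, plus strand: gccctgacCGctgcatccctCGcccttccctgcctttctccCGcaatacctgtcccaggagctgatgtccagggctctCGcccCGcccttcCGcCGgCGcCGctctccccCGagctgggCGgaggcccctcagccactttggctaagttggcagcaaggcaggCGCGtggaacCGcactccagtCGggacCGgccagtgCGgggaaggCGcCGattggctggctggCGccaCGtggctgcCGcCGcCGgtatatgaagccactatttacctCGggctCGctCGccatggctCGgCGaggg
Hoxa5, chr6:52204538-52204837, minus strand: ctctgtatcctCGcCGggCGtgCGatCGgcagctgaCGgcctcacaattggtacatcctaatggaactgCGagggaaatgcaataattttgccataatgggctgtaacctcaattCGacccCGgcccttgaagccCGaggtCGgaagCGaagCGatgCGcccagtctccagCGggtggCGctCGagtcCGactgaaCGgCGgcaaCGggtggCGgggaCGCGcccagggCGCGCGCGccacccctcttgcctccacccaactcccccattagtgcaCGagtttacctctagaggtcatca
Hoxa13, chr6:52260831-52261130, minus strand: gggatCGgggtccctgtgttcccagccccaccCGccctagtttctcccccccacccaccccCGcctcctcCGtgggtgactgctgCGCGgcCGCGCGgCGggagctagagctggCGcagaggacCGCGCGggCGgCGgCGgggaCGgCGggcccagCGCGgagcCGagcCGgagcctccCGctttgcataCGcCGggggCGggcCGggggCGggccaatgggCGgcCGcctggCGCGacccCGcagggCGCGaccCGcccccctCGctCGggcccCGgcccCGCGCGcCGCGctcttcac
Hoxb1, chr11:96365508-96365807, plus strand: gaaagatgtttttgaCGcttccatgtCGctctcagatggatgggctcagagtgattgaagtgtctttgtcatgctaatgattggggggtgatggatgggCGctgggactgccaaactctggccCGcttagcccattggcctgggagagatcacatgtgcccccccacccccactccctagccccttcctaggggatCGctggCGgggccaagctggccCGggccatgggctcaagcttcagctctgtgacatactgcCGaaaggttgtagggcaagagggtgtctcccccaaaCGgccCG
Hoxc4, chr15:103034145-103034444, plus strand: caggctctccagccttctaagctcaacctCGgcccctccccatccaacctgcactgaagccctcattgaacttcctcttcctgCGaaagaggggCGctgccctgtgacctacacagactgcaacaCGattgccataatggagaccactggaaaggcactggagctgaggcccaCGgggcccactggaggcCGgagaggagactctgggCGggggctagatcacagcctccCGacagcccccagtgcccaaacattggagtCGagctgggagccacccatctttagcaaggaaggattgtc
The Hoxd1 and Hoxa5 windows both held 29 CG dinucleotides. The Hoxd1 window lay under a peak in 3 libraries and the Hoxa5 window in none. The Hoxa13 window held 45 and lay under a peak in 1 library, heterozygote vehicle 2. The Hoxb1 window held 10 and the Hoxc4 window 9, and neither lay under a peak. The Hoxc4 window lies at a start inside the annotated gene, not at the 5′ end (chr15:103018097) used to count its peaks.

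Within 2 kb of a gene end, H3K4me3 was found at few Hox genes and at none of them in every long list. A gene was counted as marked when a deposited peak lay within 2 kb of either of its ends. In the long list of the wild type vehicle group 3 of 39 Hox genes (7.69%) were marked, in that of heterozygote vehicle 6 (15.4%), in that of wild type TAK-418 8 (20.5%) and in that of heterozygote TAK-418 3 (7.69%). Over all protein-coding genes the shares in the same lists were 55.1%, 56.2%, 60.1% and 58.8%. In the 12 short lists no Hox gene was marked and no peak lay in a Hox cluster, but those lists reached the ends of only 49 to 1954 genes (median 154), so a Hox mark may not have been detectable there.

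**Figure D1:**
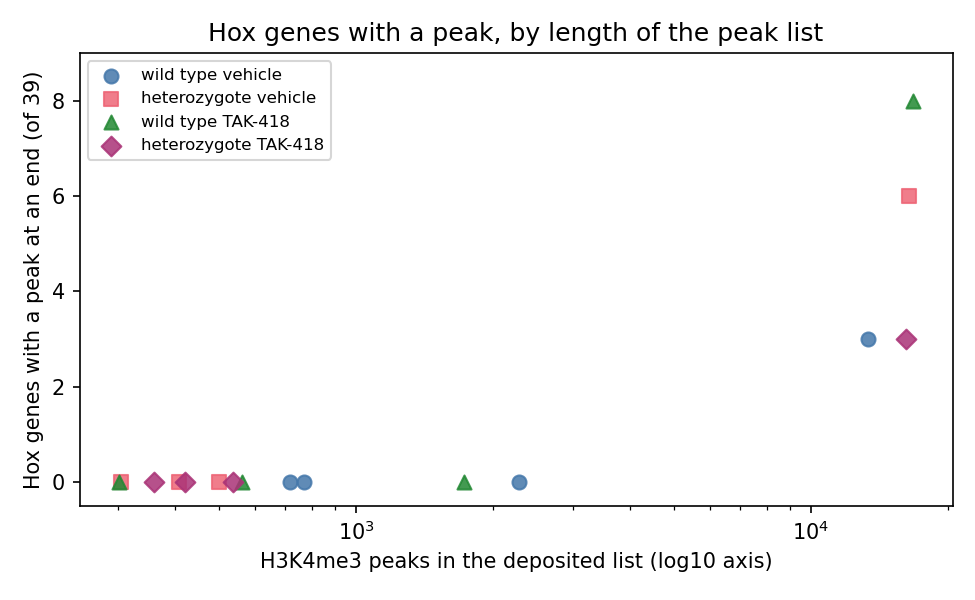
Number of Hox genes with an H3K4me3 peak within 2 kb of an end, plotted against the number of H3K4me3 peaks in the deposited list (log10 axis), with 1 point per H3K4me3 library and colours for the 4 groups. The 12 short lists sit at 0 Hox genes and the 4 long lists, of at least 13343 peaks, at 3 to 8.

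Across the 4 long lists 11 of the 39 Hox genes were marked at least once and 28 (71.8%) never. Hoxa4, Hoxa9 and Hoxd1 were marked in 3 lists. Of the 3 genes marked in 2 lists, Hoxa3 and Hoxa13 are described here. Hoxb3, Hoxc13, Hoxd3, Hoxd8 and Hoxd9 were marked in 1, and 0 Hox genes in all 4. Over all protein-coding genes 51.4% were marked in all 4 lists and 36.9% in none, so most genes were marked in all 4 or in none. The clusters differed: 5 of 11 Hoxa genes and 4 of 9 Hoxd genes were marked in some list, against 1 of 10 Hoxb genes and 1 of 9 Hoxc genes. The marked genes came from both ends of the clusters, from Hoxd1 to Hoxa13 and Hoxc13, which act at the tail end and in limb, genital or skin structures.

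The length of the clusters under peaks was measured in each long list. The share of the whole genome under peaks is not given here, so these lengths do not show whether the clusters were covered less than other regions. Of 492 kb between the outermost Hox genes of the 4 clusters, peaks covered 0.941 kb (0.191%) in the long list of wild type vehicle, 3.62 kb (0.735%) in heterozygote vehicle, 6.64 kb (1.35%) in wild type TAK-418 and 0.900 kb (0.183%) in heterozygote TAK-418. In total 24 peaks lay in the clusters or within 2 kb of them. Of these 21 lay at a Hox gene end and 3 lay elsewhere inside a gene. The 3 were in Hoxb3 (wild type TAK-418), Hoxc9 (heterozygote vehicle) and Hoxd3 (heterozygote TAK-418).

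**Figure D2:**
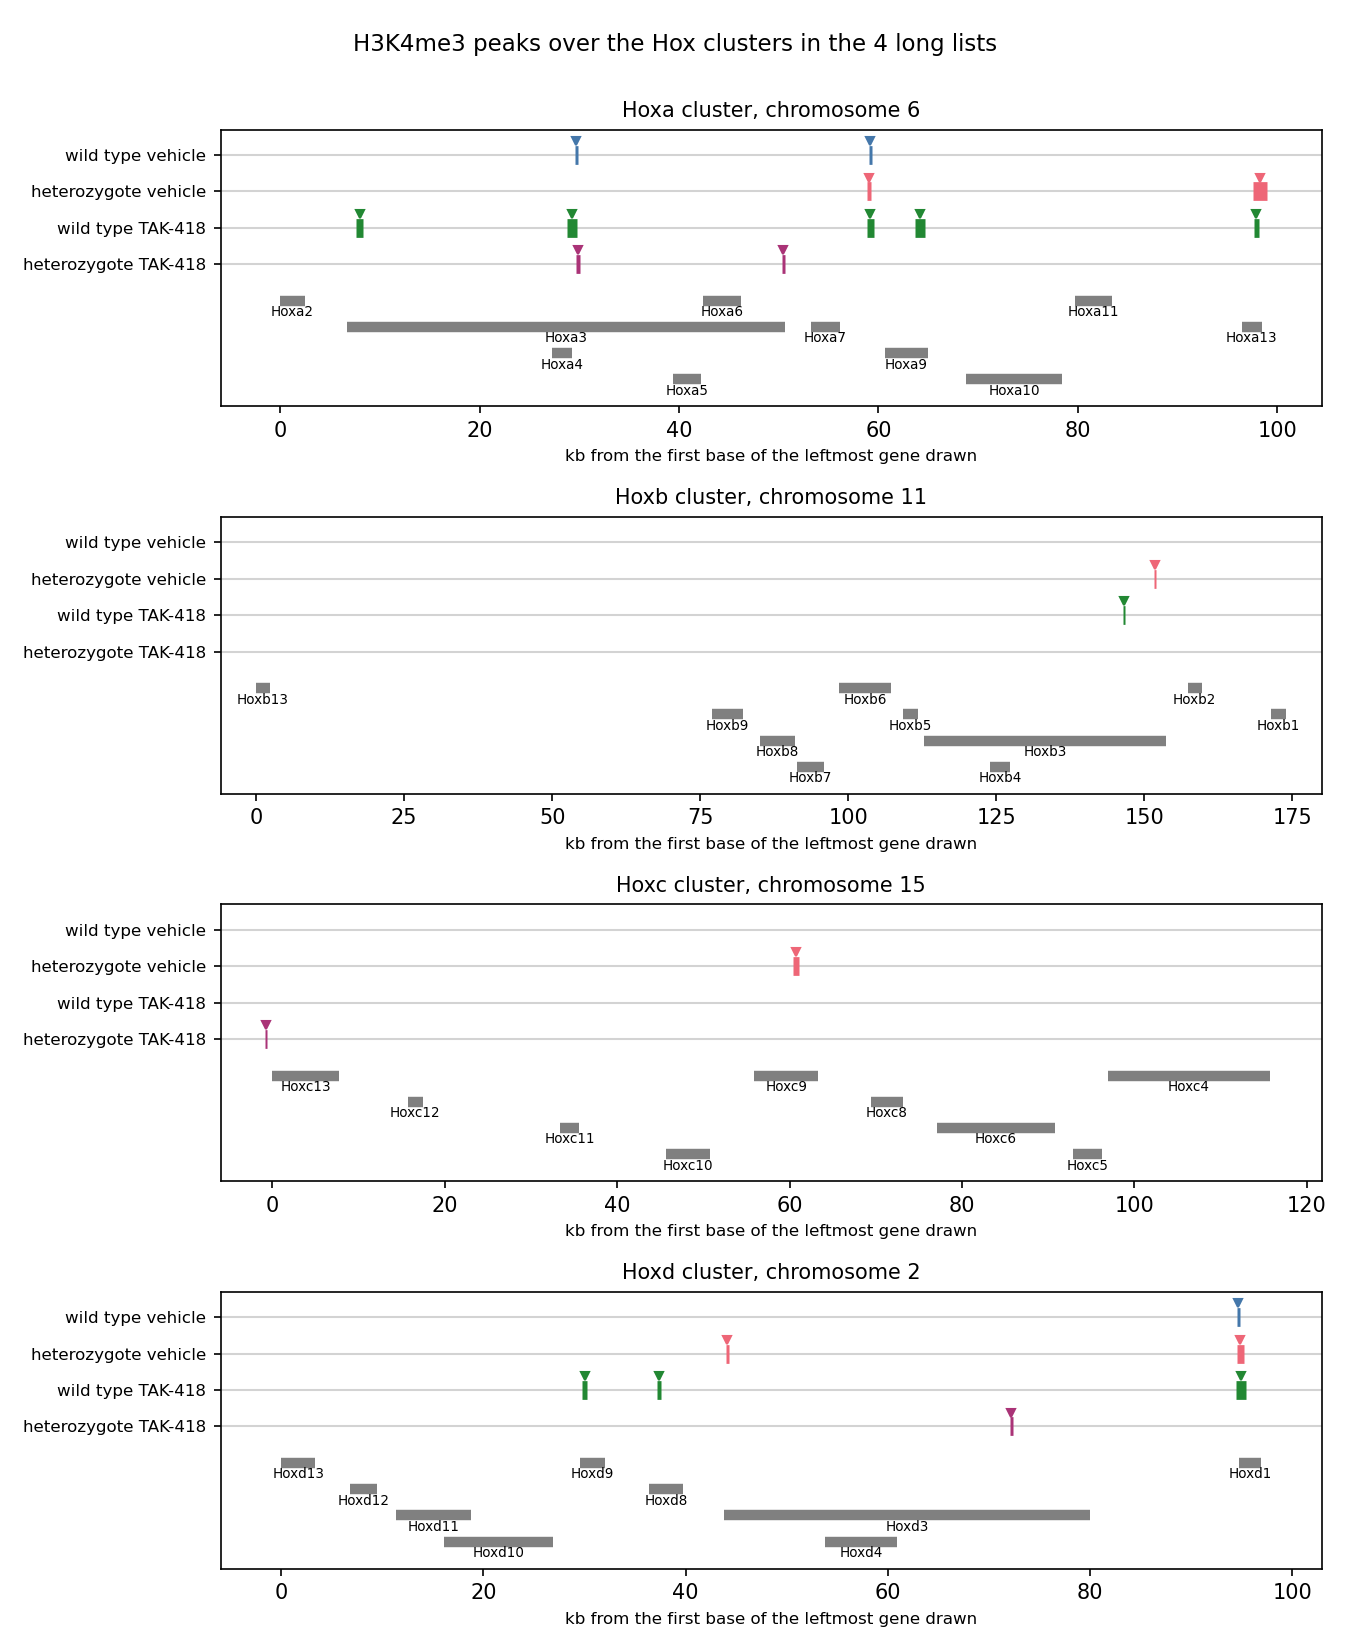
Maps of the 4 Hox clusters, in kb from the first base of the leftmost gene drawn, with grey bars for the genes drawn and coloured bars under triangles for the H3K4me3 peaks in the long list of each group. Peaks recur near Hoxa4, near Hoxa9 and at Hoxd1, each in 3 lists, and the panels of Hoxb and Hoxc show 2 peaks each over the 4 lists, 1 of those of Hoxc lying 583 bp outside the cluster.

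The Hoxa cluster on chromosome 6 spans 106 kb, with its genes on the minus strand. Fold enrichments below are over local background, as given by the authors. The lowest in each long list differed: 3.30 in wild type vehicle, 2.70 in heterozygote vehicle, 3.04 in wild type TAK-418 and 3.60 in heterozygote TAK-418. Hoxa3, which patterns the pharyngeal arches, thymus and parathyroid, was marked in 2 lists at different places. In wild type TAK-418 the peak (712 bp, fold enrichment 3.36) lay inside the gene near its 3′ end, and in heterozygote TAK-418 the peak (310 bp, 3.64) lay 63 bp from its 5′ end, overlapping the antisense gene Hoxaas3. The annotated Hoxa3 gene also spans Hoxa4, a gene of neck and rib-bearing vertebrae. The site at the 5′ end of Hoxa4 (chr6:52191139-52192435) was marked in 3 lists. Its peak was 316 bp wide with a fold enrichment of 3.30 in wild type vehicle, 1051 bp and 3.37 in wild type TAK-418, and 332 bp and 3.85 in heterozygote TAK-418, and heterozygote vehicle had none there. In wild type vehicle the 3.30 was the lowest fold enrichment that the list holds.

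Hoxa9, a trunk patterning gene that also acts in blood progenitors, was counted as marked through a site between it and Hoxa7 (chr6:52221271-52221957), beyond its 3′ end. The peak there was 314 bp wide with a fold enrichment of 5.56 in wild type vehicle, 346 bp and 2.98 in heterozygote vehicle, and 686 bp and 3.84 in wild type TAK-418, and heterozygote TAK-418 had none. The 5.56 in wild type vehicle was the highest fold enrichment of any Hox peak, and 57.3% of that list's peaks were lower. A peak 327 bp inside the 5′ end of Hoxa9 was found in wild type TAK-418 alone (992 bp, 3.04), at the lowest fold enrichment of that list. Hoxa13, a gene of the distal limb and genital tubercle, was marked in heterozygote vehicle by the widest Hox peak (1430 bp, 2.80), which covered its start, and in wild type TAK-418 by a narrower one (471 bp, 3.81) inside the gene. The remaining 6 Hoxa genes, Hoxa2, Hoxa5, Hoxa6, Hoxa7, Hoxa10 and Hoxa11, had no peak at an end in any library.

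The Hoxd cluster (chr2:74668225-74765142, 96.9 kb, plus strand) held a site that covered the start of a gene in 3 lists. Hoxd1, which in mouse also acts in pain-sensing neurons, was marked at chr2:74762667-74763622, over the printed promoter window, by a peak of 311 bp with a fold enrichment of 3.89 in wild type vehicle, 643 bp and 2.99 in heterozygote vehicle, and 956 bp and 3.88 in wild type TAK-418. Heterozygote TAK-418 had no peak there. The noncoding gene Haglr has an end within the same site, and a peak there cannot be assigned to one of these genes. Hoxd3, which patterns the first neck vertebrae, was marked in heterozygote vehicle (315 bp, 2.70), at the lowest fold enrichment of that list. Hoxd8 (478 bp, 3.17) and Hoxd9 (511 bp, 4.55), genes of the trunk, were marked in wild type TAK-418. Heterozygote TAK-418 had no peak at an end of a Hoxd gene. Hoxd4, Hoxd10, Hoxd11, Hoxd12 and Hoxd13 had none in any library.

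The Hoxb cluster (chr11:96194316-96368254, 174 kb, plus strand) had 1 marked gene, Hoxb3, a hindbrain and pharyngeal gene, through a peak inside its 3′ end in heterozygote vehicle (339 bp, 2.70). The Hoxc cluster (chr15:102921131-103036856, 116 kb, plus strand) had 1, Hoxc13, which acts in hair and nails, through a peak 583 bp before its 5′ end in heterozygote TAK-418 (272 bp, 3.60). Each was at the lowest fold enrichment that its list holds. The other 9 Hoxb genes and 8 Hoxc genes had none. The 6 microRNA genes of the clusters (Mir10a, Mir10b, Mir196a-1, Mir196a-2, Mir196b and Mir615) had no H3K4me3 peak within 2 kb in any library.

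The Hox peaks were narrow and low beside those at other gene ends. The 21 peaks at Hox ends were 272 to 1430 bp wide (median 469) with fold enrichments of 2.70 to 5.56. In width 20 of the 21, and in fold enrichment 20 of the 21, lay under the median of gene-end peaks in their own list. The median width at Hox ends was 314, 345, 686 and 310 bp in the long lists of wild type vehicle, heterozygote vehicle, wild type TAK-418 and heterozygote TAK-418, against 905, 944, 1075 and 1072 bp at all gene ends. The median fold enrichment was 3.89, 2.89, 3.81 and 3.64 at Hox ends, against 5.44, 4.26, 6.23 and 6.07 at all gene ends. Ends of genes in 38 other homeobox families, 124 genes in all, had low fold enrichments too (medians 3.85, 3.29, 4.23 and 4.52) but wide peaks (medians 1015, 1256, 1220 and 1227 bp). These medians rest on 3, 6, 9 and 3 Hox peaks, and no test was made, because peaks of 1 library are not replicates. Of the 24 peaks in and around the clusters, 5 covered the 5′ end of a Hox gene and 14 lay within 1 kb of one. Of the 21 peaks at ends, 16 were nearest to a 5′ end and 5 to a 3′ end.

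**Figure D3:**
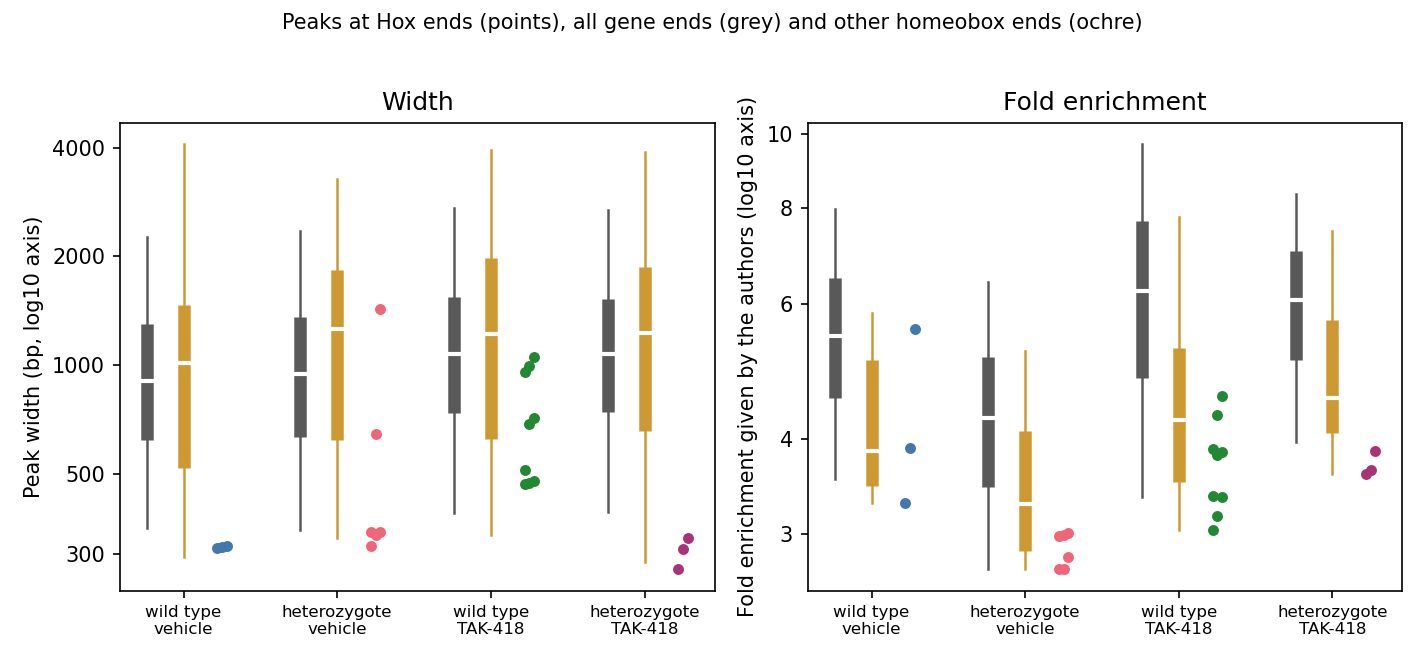
Width in bp (left) and the authors' fold enrichment (right), both on log10 axes, of H3K4me3 peaks in the long list of each group: boxes span the 25th to 75th percentile with a white line at the median, thin lines span the 5th to 95th percentile, grey for all gene ends and ochre for other homeobox gene ends, and points are the peaks at Hox ends. In heterozygote TAK-418 all 3 Hox peaks lie below the gene-end medians of 1072 bp and 6.07.

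Few Hox sites recurred between lists. Peaks at gene ends that overlapped between the long lists were merged into 13 Hox sites, of which 3 were found in 3 lists, 2 in 2, 8 (61.5%) in 1 and 0 in all 4. Of the 12910 sites at all gene ends 76.5% were found in all 4 lists and 9.98% in 1. Of the 108 sites at other homeobox genes 38.9% were found in all 4 and 29.6% in 1. These shares are descriptions of 4 libraries.

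In other homeobox families 43.5%, 52.4%, 66.9% and 48.4% of 124 genes were marked in the same lists, given here as a description. Of the 38 families, 24 had a higher marked share than Hox in all 4 lists. In 8 families every member was marked in all 4 lists, namely Emx (forebrain patterning), Cux (upper-layer neurons), Tshz, the TALE families Meis, Pbx and Pknox, and the single-member families Hlx and Hhex. The Evx family, whose members Evx1 and Evx2 sit beside the Hoxa and Hoxd clusters and act in the spinal cord, had 0 marked in all 4.

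Genes beside the clusters were counted in the same way. Of the 24 protein-coding genes nearest to the clusters, 3 on each side, 16 (66.7%) were marked in all 4 long lists, 5 in some and 3 (Evx1, Evx2 and Gm50595, 12.5%) in none, against 51.4% and 36.9% of all protein-coding genes. Mtx2, a gene of mitochondrial import 60.7 kb from Hoxd, had fold enrichments of 6.57, 5.34, 10.1 and 7.74, in the order wild type vehicle, heterozygote vehicle, wild type TAK-418 and heterozygote TAK-418. Lnpk, an endoplasmic reticulum gene 88.8 kb on the other side, had 9.14, 4.21, 9.54 and 6.05. Each exceeded every Hoxd peak of its list.

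Genes that act on or with Hox genes were counted beside all protein-coding genes. Of those, 55.1% to 60.1% were marked in each long list and 51.4% in all 4. All 9 Hox cofactors of the TALE class, the Meis, Pbx and Pknox genes already counted among the homeobox families, were marked in all 4 long lists. Of 31 Polycomb genes 30 were marked in all 4, the exception being Cbx7, and of 20 trithorax-type regulators 18, the exceptions being the complex subunits Ash2l and Dpy30. In the retinoic acid pathway 10 (55.6%), 8 (44.4%), 12 (66.7%) and 10 (55.6%) of 18 genes were marked, near the share of all genes. The receptors Rara, Rarg, Rxra and Rxrb, the synthesis enzymes Aldh1a3 and Rdh10, and Dhrs3 were marked in all 4. The receptor Rarb, the synthesis enzyme Aldh1a1 and the degrading enzymes Cyp26b1 and Cyp26c1 were among the 6 marked in none.

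**Figure D4:**
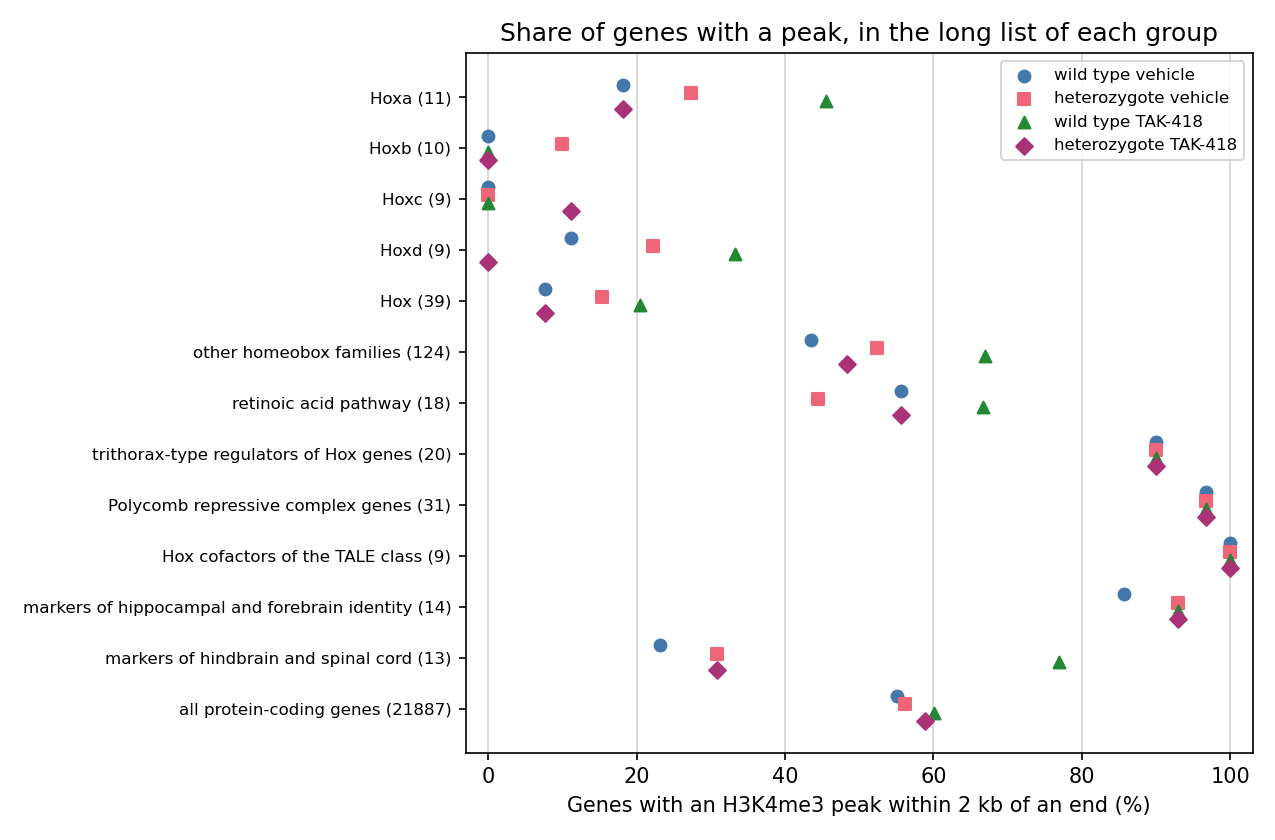
Share of genes with an H3K4me3 peak within 2 kb of an end (percent) for the 4 Hox clusters, all Hox genes and comparison lists, with the number of genes in brackets and 1 symbol per group for its long list. Hox genes lie between 7.69% and 20.5%, other homeobox families between 43.5% and 66.9%, and all protein-coding genes between 55.1% and 60.1%.

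Markers of the tissue and of its neighbours were counted the same way. Of 14 markers of hippocampal and forebrain identity 12, 13, 13 and 13 were marked in wild type vehicle, heterozygote vehicle, wild type TAK-418 and heterozygote TAK-418, so markers of the labelled tissue were present. Of 13 markers of hindbrain and spinal cord, where Hox genes are used, 3, 4, 10 and 4 were marked. En2 and Egr2 were marked in all 4, and Ptf1a and Slc6a5 in none, while En1, Gbx2, Tlx3, Lbx1, Atoh1 and Chat were marked in wild type TAK-418 alone. Wild type TAK-418 was thus the list with the most marked hindbrain markers, the most marked Hox genes and the most marked homeobox genes of other families, and also the list with the most peaks. Of 14 markers of meninges and vascular mesenchyme, which can express Hox genes, 2, 7, 7 and 7 were marked. Of 14 markers of microglia and blood 1, 3, 1 and 2 were marked. The part of list length and of these cell types in the Hox counts was not tested.

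The CG content of the Hox promoter windows found was near that of promoters in general, while few of them lay under a peak. These windows stand for 22 of the 39 Hox genes, mostly of Hoxa and Hoxd. They leave out Hoxa4, which was marked in 3 lists. The 24 Hox windows held 4 to 45 CG dinucleotides (median 14.5), against a median of 13 over 21263 windows of all promoters and 18 over 102 windows of other homeobox families. A peak covered 1 (4.17%), 2 (8.33%), 1 (4.17%) and 0 of the 24 Hox windows in wild type vehicle, heterozygote vehicle, wild type TAK-418 and heterozygote TAK-418. The share over all windows was 47.7% to 54.3% and over other homeobox windows 25.5% to 49.0%. Among windows with at least the Hox median of CG dinucleotides, 85.7% to 94.1% of 9957 windows were covered, 32.4% to 60.6% of 71 homeobox windows, and 1, 2, 1 and 0 of 12 Hox windows. The covered Hox windows were those of Hoxd1 and Hoxa13. The TATA box letters TATAAA, read on both strands, occurred in 4 of 24 Hox windows (16.7%) and in 12.6% of all windows, and the Hox-Pbx motif TGATTNAT in 2 (8.33%) and in 2.75%. These matches are descriptions of letters in the windows.

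**Figure D5:**
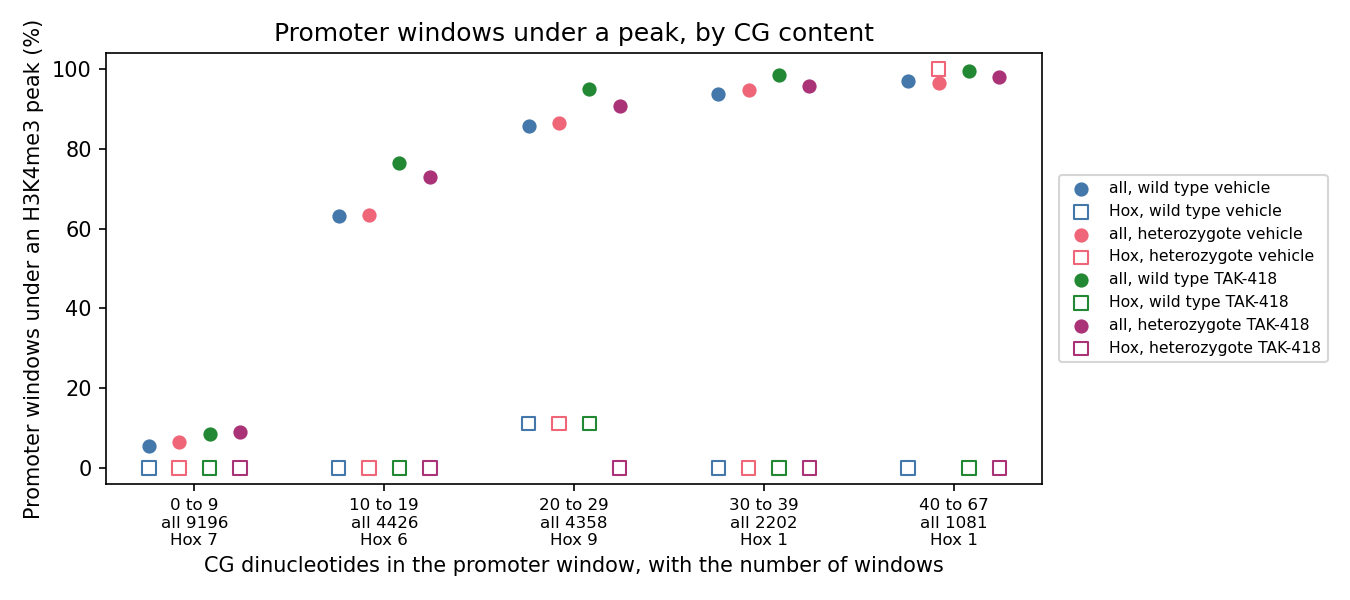
Share of promoter windows of 300 bp under an H3K4me3 peak (percent) by the number of CG dinucleotides in the window, for all promoters (filled circles) and Hox promoters (open squares), with colours for the long list of each group and the number of windows under each bin. Among windows with 20 to 29 CG dinucleotides 85.8% to 94.9% of all windows and at most 1 of 9 Hox windows were covered.

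The comparisons between groups could not detect a difference in Hox marks, because each group had 1 long list with marked Hox genes and 3 short lists with 0. With 6 of 8 values at 0, and 1 other value in each group, the exact permutation test returns p = 1 whatever those 2 values are, and no arrangement of these values gives a p under 0.429. The values are therefore given as descriptions. For the loss of 1 copy of Kmt2d, the 4 heterozygote vehicle libraries had 0, 6, 0 and 0 marked Hox genes and the 4 wild type vehicle libraries 0, 0, 3 and 0, so the groups overlapped at 0. The means were 1.50 ± 3 and 0.750 ± 1.50 (SD, n = 4), a difference of 0.750 (two-sided exact permutation p = 1). The covered length was 0.904 ± 1.81 kb against 0.235 ± 0.470 kb, a difference of 0.669 kb (exact permutation p = 1, n = 4). Among the 3 libraries per group with short lists both differences were 0, because every value was 0. The authors' deposited list of differential H3K4me3 regions for these groups reached the ends of 7.21% of protein-coding genes and of 0 Hox genes. Gene by gene, Fisher's exact test over libraries found 0 of 11414 genes (0%) at an adjusted p under 0.05 and 0 at an unadjusted p under 0.05. The smallest p of any gene was 0.143 in each of the 4 comparisons, so with these libraries no gene passed even before adjustment. Hoxd1 and Hoxa9, each marked in 1 library of both groups, were the 2 Hox genes that entered the test, and that arrangement fixes an exact p of 1.

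The second comparison asks whether the inhibitor changes the mark in the mutant. Heterozygote TAK-418 libraries had 0, 0, 3 and 0 marked Hox genes, against 0, 6, 0 and 0 in heterozygote vehicle. The means were 0.750 ± 1.50 and 1.50 ± 3 (SD, n = 4), a difference of −0.750 (exact permutation p = 1). The covered length was 0.225 ± 0.450 kb against 0.904 ± 1.81 kb, a difference of −0.679 kb (exact permutation p = 1, n = 4). The marked genes of the long list were Hoxa3, Hoxa4 and Hoxc13 in heterozygote TAK-418, and those of heterozygote vehicle included Hoxa9, Hoxa13, Hoxb3, Hoxd1 and Hoxd3. The authors' deposited list reached 4.20% of all genes and 0 Hox genes. Fisher's exact test found 0 of 11786 genes (0%) at an adjusted p under 0.05 and 0 at an unadjusted p under 0.05, and no Hox gene could be tested.

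Wild type mice given TAK-418 had libraries with 0, 0, 8 and 0 marked Hox genes, against 0, 0, 3 and 0 with vehicle. The means were 2 ± 4 and 0.750 ± 1.50 (SD, n = 4), a difference of 1.25 (exact permutation p = 1). The covered length was 1.66 ± 3.32 kb against 0.235 ± 0.470 kb, a difference of 1.42 kb (exact permutation p = 1, n = 4). The marked genes of the long list were Hoxa4, Hoxa9 and Hoxd1 with vehicle, and with TAK-418 they included these and Hoxa3, Hoxa13, Hoxd8 and Hoxd9. The authors' deposited list reached 9.98% of all genes and 0 Hox genes, and its region nearest to a Hox cluster lay 89.3 kb from Hoxd, at Lnpk. Fisher's exact test found 0 of 11916 genes (0%) at an adjusted p under 0.05 and 0 at an unadjusted p under 0.05, with Hoxd1, Hoxa4 and Hoxa9 tested, again in 1 library of each group.

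Heterozygotes given TAK-418 and wild types given vehicle both had a mean of 0.750 ± 1.50 marked Hox genes (SD, n = 4), a difference of 0 (exact permutation p = 1). The covered length was 0.225 ± 0.450 kb against 0.235 ± 0.470 kb, a difference of −0.0102 kb (exact permutation p = 1, n = 4). The authors' deposited list reached 9.73% of all genes and 0 Hox genes, and Fisher's exact test found 0 of 11819 genes (0%) at an adjusted p under 0.05 and 0 at an unadjusted p under 0.05. The 4 comparisons share vehicle groups and each rests on 1 long list per group, so these values do not show that the groups are alike.

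Elsewhere in these 4 lists, 2, 1, 6 and 3 of the 124 other homeobox genes had a differential H3K4me3 region at an end, in the order of the comparisons above. These are 1.61%, 0.806%, 4.84% and 2.42%, beside 7.21%, 4.20%, 9.98% and 9.73% of all protein-coding genes. Of the 24 neighbours of the clusters 1, 3, 4 and 2 had one. Among them Cbx3, which encodes a heterochromatin protein and lies 672 kb from Hoxa, had one in all 4 lists. The 15 H3K4me1 lists held 88 to 456 peaks and reached the ends of 16 to 65 genes, with 0 Hox genes and 0 peaks in a cluster. The authors' 4 differential lists taken to be of H3K4me1 reached the ends of only 47 to 59 of 21887 protein-coding genes, and of 0 Hox genes. With so few genes reached, 0 Hox genes is near the share of all genes. Their nearest region lay 484 kb from a cluster.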

How the data were processed

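Peak lists of 31 libraries and 8 lists of differential regions were used as deposited. Per the submitters' processing notes the assembly was mm10 and MACS2, MACS and bedtools were used. Versions, aligner, control library and peak threshold are not given in the sources used here. Per the file layout, deposited peaks carry the authors' fold enrichment, a ratio, a display score, and −log10 p and q values. The deposited differential lists carry a −log10 p of at least 1.3 and library scores whose making the labels do not state, and the mark of 4 of them was inferred from the number of scores. No file holds counts, so depth and the precision of a peak are unknown. A peak counted for a gene within 2 kb of either end (RefSeq GRCm38.p6); mitochondrial genes were left out. Strands absent from the promoter table were taken from the cluster.

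Analyses ran in Python 3.11.15 (scipy 1.17.1, pandas 2.3.3, numpy 2.4.6); figures were drawn with matplotlib 3.10.9. Groups were compared by two-sided exact permutation tests over libraries. Fisher's exact test ran over every gene that had a peak in 2 or more of the libraries compared and lacked one in 2 or more, adjusted by Benjamini-Hochberg, and was checked on simulated data. The planned limma fit of region scores was not made, because no listed region lay at a Hox gene. Libraries carry separate mouse numbers. The rule named every Hox gene with a peak, of which 1 is counted but not reported individually here, like some markers; sequences were chosen for the gene with a peak in the most libraries per cluster and for 2 without any. Members and lists were chosen with earlier results of these data known. Alternatives were windows of 0 and 5 kb, a −log10 q of at least 5, the later index sets alone, and leaving out each library.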

Additional observations from a re-analysis of the deposited data

Results flagged for a closer look

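In each H3K4me3 group 1 library lay far from the other 3, which were all at 0. The number of Hox genes with a peak at an end was 3 in wild type vehicle library 3, 6 in heterozygote vehicle library 2, 8 in wild type TAK-418 library 3 and 3 in heterozygote TAK-418 library 3. The length of the Hox clusters covered by peaks was 0.941, 3.62, 6.64 and 0.900 kb in the same libraries. With the other 3 values tied at 0, any value above 0 stands apart in this way, so the usual rate of about 1 in 20 groups by chance does not apply. These are the 4 long lists, with an index of sets 1 and 2, and the part of index set or list length was not tested.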

How the results depend on the processing

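Each value was recomputed under the alternatives, 124 recalculations in all, of which 64 left out 1 library. In 38 of the others and 46 of those leaving out a library the value was classed as the same in direction and side of the threshold. Many of the 38 were counts of 0 that stayed at 0, from Fisher's exact test and the authors' lists, and show no robustness. In 15 of the others the value went to 0 or to a lower share. In 7 of the others and 18 of those leaving out a library it changed sign or left a difference of 0. No alternative gave a permutation p under 0.05, which these values could not reach. With peaks of −log10 q of at least 5 the difference in marked Hox genes was −0.250 for heterozygote vehicle, wild type TAK-418 and heterozygote TAK-418, each against wild type vehicle, and 0 for heterozygote TAK-418 against heterozygote vehicle. The difference in covered length was then −0.0785 kb for each of the former 3 and 0 for the last. The marked share of Hox genes was then 0% in heterozygote vehicle, wild type TAK-418 and heterozygote TAK-418, beside 17.3%, 41.4% and 41.4% of all genes, and 2.56% in wild type vehicle, beside 30.7%. With overlap of the end itself (0 kb) the share was 2.56% in wild type vehicle, 5.13% in heterozygote vehicle, 5.13% in wild type TAK-418 and 0% in heterozygote TAK-418, beside at least 36.8% of all genes in each list, and the difference between heterozygote TAK-418 and wild type vehicle was −0.250, against 0.250 within 5 kb. Within the later index sets every difference was 0.

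Leaving out 1 library at a time, the difference in marked Hox genes ranged from −0.750 to 1.50 (heterozygote vehicle against wild type vehicle), −1.50 to 0.750 (heterozygote TAK-418 against heterozygote vehicle), −0.750 to 2 (TAK-418 against vehicle in wild types) and −0.750 to 0.750 (heterozygote TAK-418 against wild type vehicle). The covered length ranged from −0.235 to 0.970, −0.980 to 0.225, −0.235 to 1.98 and −0.235 to 0.225 kb. In the first 3 comparisons every change of sign came from leaving out 1 long list, heterozygote vehicle 2 in the former pair and wild type TAK-418 3 in the third. For heterozygote TAK-418 against wild type vehicle, where the difference was 0 genes and −0.0102 kb, most omissions gave it a sign or turned it. At 0 kb Fisher's exact test had 1 gene at an unadjusted p under 0.05 in each of the heterozygote vehicle comparisons, neither of them a Hox gene, and 0 in the others. The causes of these shifts were not tested.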

Other observations

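Long noncoding genes of the clusters were marked at the same few sites as their Hox neighbours. Within 2 kb of an end, Haglr, beside Hoxd1, had a peak in 3 of the 4 long lists. Hottip, which lies beyond Hoxa13, had one in heterozygote vehicle alone, and Hotair, in the Hoxc cluster, had none. These peaks are the ones counted for the Hox genes above, except at Hoxb3os and Gm36878, which lie at peaks inside Hoxb3 (wild type TAK-418) and Hoxc9 (heterozygote vehicle).

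With a window of 5 kb the marked share of Hox genes was 10.3% in wild type vehicle, 25.6% in heterozygote vehicle, 30.8% in wild type TAK-418 and 12.8% in heterozygote TAK-418, beside 58.7%, 60.0%, 63.6% and 62.6% of all protein-coding genes. In that window Hoxa7 was marked in all 4 long lists, though not through the same site in each.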
